A study of Homo sapiens with 2 samples.

Results

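A set of long noncoding RNAs, several of them known as abundant in many cells, was described here in A549 cells, a lung adenocarcinoma line, with and without a lentiviral vector for the zinc finger gene ZNF300. The set was given by name as MALAT1, NEAT1, GAS5, PVT1, H19, MEG3, TUG1 and SNHG1, and its measurements are the probe sets of the array that are annotated to exactly 1 gene of these 8. There were 30 such probe sets among the 54675 of the array, 12 for MALAT1, 10 for MEG3, 6 for TUG1, 1 for GAS5 and 1 for PVT1. The probe sets of NEAT1, H19 and SNHG1 are each annotated to several genes, as are 4 more of GAS5 and 4 more of PVT1, so those 3 RNAs are not analysed here and 5 genes remained, of 19775 with such a probe set on the array.

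RNA levels came from Affymetrix Human U133 Plus 2.0 arrays, which read the sequence near the 3′ end of RNA copied from its poly(A) tail. A549-LV5 cells carried the LV5 vector with a random sequence as control, and A549-ZNF300 cells carried LV5 with the full-length coding sequence of ZNF300 transcript variant 1. Both were A549 cells in ordinary culture, lifted with trypsin before extraction of total RNA, and neither label gives a time after transduction or says whether the cells were 1 clone. Each condition has 1 array. No difference could therefore be set against a spread between replicates, and no p-value is given.

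All values are log2 signals as the authors deposited them, and every log2 ratio is A549-ZNF300 over A549-LV5. The median of all probe sets was 6.14 in A549-LV5 and 6.03 in A549-ZNF300. Probe sets whose signal reached the median of the array in A549-LV5 or in A549-ZNF300 were taken as detected, and a gene was represented by its detected probe set with the highest mean signal. Signals of different probe sets depend on their own probes, so differences were taken only between arrays, within a probe set or a sum over the same probe sets. Bright and dim describe the place of a probe set among those of its array and do not measure how abundant an RNA is. ZNF300 itself had a log2 signal of 4.16 in A549-LV5 and 8.91 in A549-ZNF300. Of 12 markers of epithelium and of A549, 11 had a probe set of their own and were detected, with summed linear signals of 95252 in A549-LV5 and 232848 in A549-ZNF300. At least 2-fold higher in A549-ZNF300 were 8 of the 11 and 0 were that much lower, beside 13.6% and 15.4% of all detected genes (29% together). In A549-LV5, CDH1 and KRT19 lay below the array median, while the NRF2 targets NQO1 and TXNRD1 were bright in both arrays. Of 21 markers of fibroblasts, endothelium and leukocytes, 8 were detected, among them COL1A1 of fibroblasts (7.90 in A549-LV5 and 10.45 in A549-ZNF300), PECAM1 of endothelium (6.77 and 7.04) and ITGAM of leukocytes (8.07 and 6.59). PTPRC, CDH5 and VWF were among the 11 that had a probe set of their own and were not detected. The part that the shift of these markers has in the results was not tested.

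Long noncoding RNAs act as RNA, without a protein product. MALAT1 lies in nuclear speckles, the stores of splicing factors, and loses its poly(A) tail when RNase P cuts off a small tRNA-like RNA from its 3′ end. MEG3 is an imprinted RNA, made from the maternal copy of the DLK1-DIO3 cluster on chromosome 14, raises p53 activity when it is added to cells and is silenced in many tumours. TUG1, on chromosome 22, was named as a gene turned on by taurine, and the RefSeq table lists it as protein coding. GAS5, on chromosome 1, builds up in growth-arrested cells, carries small nucleolar RNAs (snoRNAs) in its introns and starts with a run of pyrimidines like the mRNAs of ribosomal proteins. PVT1 lies beside MYC and is co-amplified with it in tumours.

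The sequences around the start sites of MEG3, MALAT1 and TUG1 are shown because MEG3 was at least 2-fold lower while the other 2, also read by several probe sets, were close to equal. Each holds 250 bases before and 50 from the RefSeq start onwards, on GRCh38.p14, 5′ to 3′, and capitals mark the letters of 4 motifs searched on both strands. The motifs were the cAMP response element TGACGTCA, the TATA box TATAAA, the E-box CACGTG and the CCAAT box CCAAT, which do not overlap each other in these sequences. RefSeq gives 3 starts for MEG3 and 2 for MALAT1, and the second of each is shown.
MEG3 (chr14:100825868-100826167, plus strand): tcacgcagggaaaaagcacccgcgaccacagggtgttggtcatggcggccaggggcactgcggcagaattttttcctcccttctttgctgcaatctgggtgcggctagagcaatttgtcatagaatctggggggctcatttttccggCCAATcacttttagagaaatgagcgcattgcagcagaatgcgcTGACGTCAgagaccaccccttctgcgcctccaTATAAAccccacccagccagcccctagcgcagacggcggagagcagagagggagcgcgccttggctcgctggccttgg
MALAT1 (chr11:65498795-65499094, plus strand): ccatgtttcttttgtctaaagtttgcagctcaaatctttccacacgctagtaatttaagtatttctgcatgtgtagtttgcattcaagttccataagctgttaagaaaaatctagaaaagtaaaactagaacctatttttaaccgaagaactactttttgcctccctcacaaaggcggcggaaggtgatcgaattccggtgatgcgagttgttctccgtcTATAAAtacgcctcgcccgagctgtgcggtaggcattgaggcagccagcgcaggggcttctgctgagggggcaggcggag
TUG1 (chr22:30969015-30969314, plus strand): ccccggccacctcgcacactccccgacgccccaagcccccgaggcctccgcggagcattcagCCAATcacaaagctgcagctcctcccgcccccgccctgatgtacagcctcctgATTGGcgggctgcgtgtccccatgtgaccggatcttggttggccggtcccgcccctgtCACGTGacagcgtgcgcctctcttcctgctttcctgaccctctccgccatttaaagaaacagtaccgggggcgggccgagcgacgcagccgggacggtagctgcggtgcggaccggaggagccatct

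The MEG3 sequence holds a cAMP response element 60 bases before the start, a TATA box 28 bases before it and a CCAAT box. The MALAT1 sequence holds 1 of the motifs, a TATA box 30 bases before the start, and the first MALAT1 start, not shown, holds 0 of them. All 3 MEG3 starts hold the same cAMP response element, TATA box and CCAAT box. TUG1 holds 1 E-box and 2 CCAAT boxes. Of the 35116 promoters of the RefSeq table, 1.85% hold the cAMP response element, 11.5% the TATA box, 7.26% the E-box and 34.6% the CCAAT box. A match is a run of letters and no measure of binding, and nothing was measured at these promoters.

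The 75th percentile was reached in both arrays by 10 probe sets of MALAT1 and 4 of TUG1, and by 0 of MEG3, GAS5 and PVT1. GAS5 and PVT1 were read by 1 probe set each, and these counts do not rank the RNAs by abundance. MEG3 was lower in A549-ZNF300, while MALAT1, TUG1 and GAS5 were each under 2-fold apart. Of the 4 detected genes, 1 was at least 2-fold lower and 0 were at least 2-fold higher, beside 15.4% and 13.6% (29% together) of all 13221 detected genes. Of the 30 probe sets, 25 were detected, 6 of them at least 2-fold lower and 0 at least 2-fold higher, and the same 15.4% and 13.6% (29.1% together) held over all 25145 detected probe sets that name 1 gene. The 6 were all of MEG3. Among the 18 detected probe sets of the other RNAs, the largest distance from 0 was 0.73 on the log2 scale. Of all detected genes, 46.6% were higher and 53.4% lower by any amount. Their median log2 ratio was -0.06, and with both arrays centred on their medians it was 0.04.

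**Figure D1:**
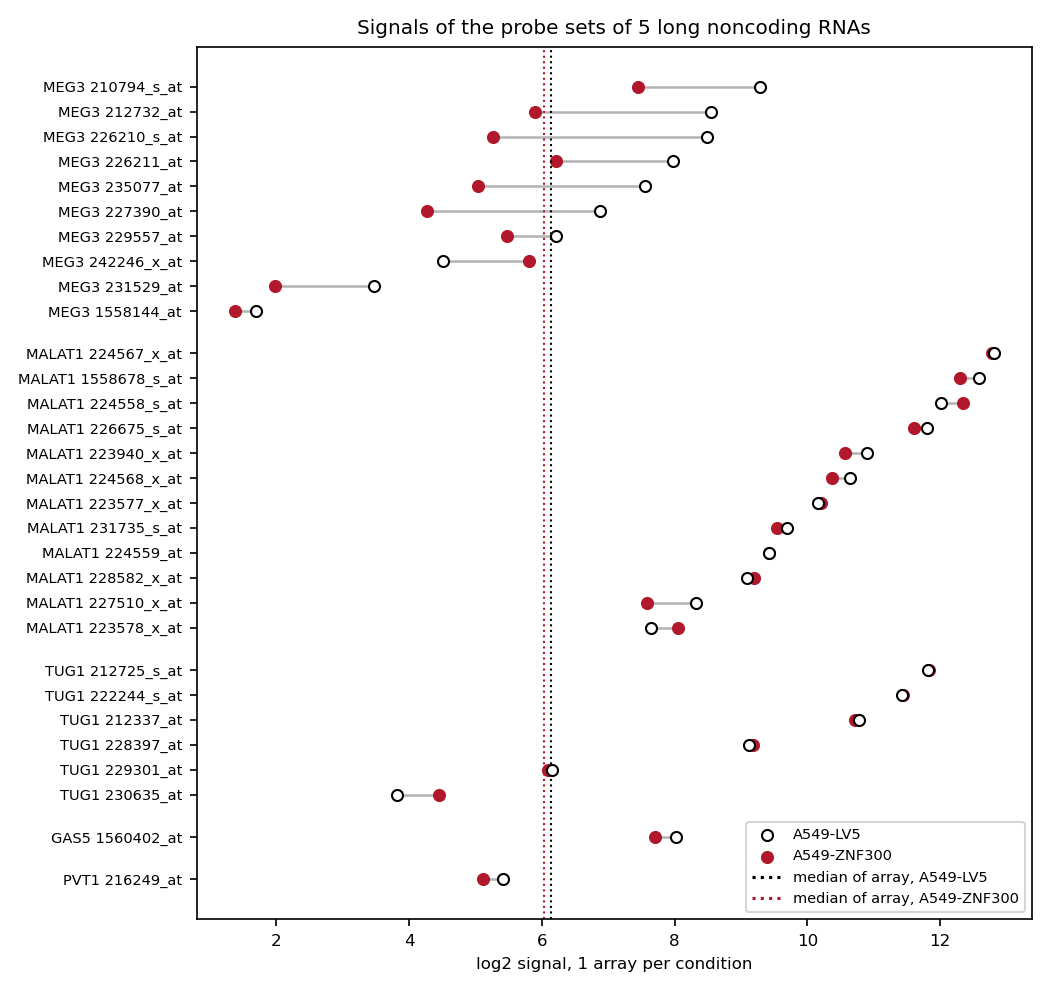
Log2 signals of the 30 probe sets in A549-LV5 (open circles) and A549-ZNF300 (filled circles), 1 array each, joined by a line per probe set, with the array medians as dotted lines. The 7 upper MEG3 probe sets move left, 5 of them to below the array median, while the points of MALAT1 and TUG1 lie close together, except for the dim TUG1 probe set 230635_at and for MALAT1 227510_x_at.

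For MEG3, 7 of 10 probe sets were detected, and all 7 were lower in A549-ZNF300. The brightest, 210794_s_at, had a log2 signal of 9.28 in A549-LV5 and 7.45 in A549-ZNF300. Its log2 ratio was -1.83, or 3.56-fold lower. Probe set 212732_at had 8.56 and 5.90, which is 6.32-fold lower. Both were called present in both arrays in the table of detection calls that the authors deposited. Of all detected genes, 5.89% had a lower ratio than MEG3.

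The largest difference among the detected MEG3 probe sets was that of 226210_s_at, from 8.49 to 5.26, a log2 ratio of -3.23. Probe set 226211_at, whose annotation names the same sequence record, had 7.98 and 6.21, a log2 ratio of -1.77. These 2 were therefore not taken as independent readings of the RNA, although where their probes lie is not known. Probe set 226210_s_at was called present in A549-LV5 and absent in A549-ZNF300, so its A549-ZNF300 signal is near background. With that signal raised to the array median, its log2 ratio was -2.45.

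The dimmer detected probe sets of MEG3 were also lower, a sign that the detection rule fixed for them. For 235077_at the signals were 7.56 and 5.03, with a call of present in A549-LV5 and absent in A549-ZNF300, and the log2 ratio was -2.53, or -1.52 against the array median. For 227390_at they were 6.87 and 4.27, with log2 ratios of -2.60 and -0.84. The least different was 229557_at, which was just above the median in A549-LV5 (6.22) and below it in A549-ZNF300 (5.47), with a log2 ratio of -0.75. Below the median of the A549-ZNF300 array lay 5 of the 7, and raising dim signals to that median left 5 of the 7 at least 2-fold lower, beside 11.6% of all detected probe sets under the same rule, where 9.85% were higher and 21.4% one or the other.

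The remaining 3 probe sets of MEG3 were below the median in both arrays and differed in direction. Probe set 231529_at had 3.48 and 1.99, and 1558144_at had 1.70 and 1.37. Probe set 242246_x_at went the other way, from 4.51 to 5.81, and was called absent in A549-LV5 and present in A549-ZNF300. Names ending in _x_at mark probe sets that may bind several transcripts.

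Over its 7 detected probe sets MEG3 had a median log2 ratio of -2.53, with an SD of 0.81 between probe sets and a span of 2.48. This SD was larger than those of 78.7% of the 230 genes with at least 6 detected probe sets, among which the median SD was 0.50. Probe sets of a gene share the RNA of 1 extract and are not replicates, so their SD describes agreement between probes and not the error of the array. All 7 had a negative ratio, but for the 5 below the median in A549-ZNF300 the detection rule fixed that sign. Their shared sign is therefore no measure of agreement. The size was not shared: the 2 probe sets that stayed above the array median in both arrays gave -1.83 and -1.77. The 4 with ratios beyond -2.5 fell short of it in A549-ZNF300.

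**Figure D2:**
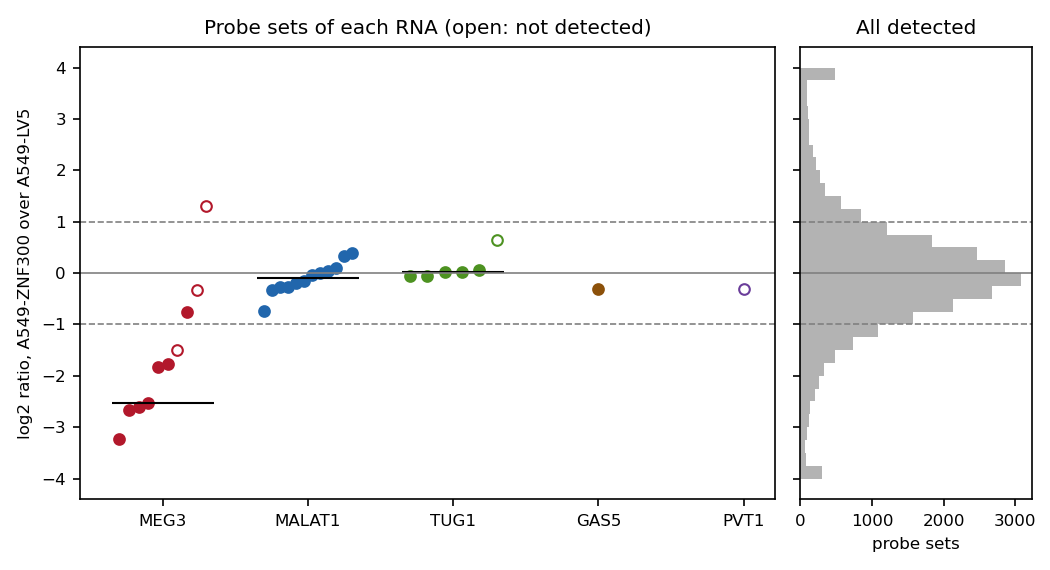
Left, log2 ratio (A549-ZNF300 over A549-LV5) of each probe set of MEG3, MALAT1, TUG1, GAS5 and PVT1, filled where detected and open where not, with the median of the detected ones as a line and dashed lines at 2-fold. Right, the same ratio over the 25145 detected probe sets that name 1 gene, where the end bars also collect all values beyond them. The MEG3 points lie mostly below the lower dashed line, with 1 open point above the upper one, and the points of the other RNAs lie between the dashed lines.

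MALAT1 was close to equal in the arrays, as far as these read it. Since RNA was copied from its poly(A) tail and MALAT1 loses that tail, which forms of MALAT1 the signals stand for is not known. All 12 of its probe sets reached the median of each array, 10 of them also the 75th percentile of each, and 0 were at least 2-fold apart. The brightest, 224567_x_at, had log2 signals of 12.81 and 12.78 (log2 ratio -0.03). The only probe set of MALAT1 whose name ends in _at without a letter for shared sequence, 224559_at, had 9.42 in both arrays. The sign of the log2 ratio of MALAT1 changed with the scale, since it was 0.07 when both arrays were centred on their medians and -0.11 after quantile normalization.

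Of the 12 probe sets of MALAT1, 7 were lower and 5 higher in A549-ZNF300, and 11 were within 0.4 on the log2 scale. The exception was 227510_x_at, from 8.33 to 7.59, a log2 ratio of -0.73. The highest ratio was that of 223578_x_at, from 7.65 to 8.04. These were also the 2 dimmest of the 12 in A549-LV5. The median was -0.09 with an SD of 0.31 between probe sets, and 7 of the 12 names end in _x_at and 4 in _s_at, the ending for probe sets that match several transcripts or variants.

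TUG1 was also close to equal in the arrays. Its 5 detected probe sets had log2 ratios between -0.07 and 0.06, with an SD of 0.05. Probe set 212725_s_at had 11.82 in A549-LV5 and 11.83 in A549-ZNF300, and 222244_s_at had 11.42 and 11.44. The log2 ratio of 0.01 of 212725_s_at, the brightest, was 0.12 with the arrays centred on their medians and -0.02 after quantile normalization, so its sign also changed with the scale. The probe set that was not detected, 230635_at, had 3.81 and 4.46.

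GAS5 and PVT1 rested on 1 probe set each. For GAS5, 1560402_at had a log2 signal of 8.02 in A549-LV5 and 7.70 in A549-ZNF300. Its log2 ratio was -0.32, or -0.21 with the arrays centred on their medians. For PVT1, 216249_at had 5.42 and 5.11, below the median in both arrays, so no ratio was read from it. With no other probe set to compare, the agreement between probe sets cannot be given for either.

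The genes around MEG3 did not all share its direction. The DLK1-DIO3 cluster holds the paternally expressed protein genes DLK1 and DIO3 and, on the maternal copy, noncoding RNAs with snoRNA and microRNA genes. Its genes were looked at as a whole after their values had been seen. The probe set of SNORD114-3, a snoRNA gene of the cluster, had signals of 7.87 and 5.15, with calls of present and absent. Its log2 ratio was -2.72, or -1.84 against the array median, in the range of those of MEG3. Whether this probe set reads the snoRNA or a longer RNA of the cluster was not tested.

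DLK1, a transmembrane protein related to Notch ligands, had a detected probe set near the median in both arrays, 5.95 and 6.37, and another, not detected, with a log2 ratio of -1.88. MEG9, another noncoding RNA of the cluster, had 5.62 and 6.28, and LINC02314 had 6.16 and 6.01. The detected probe sets of all 3 were under 2-fold apart. DIO3OS, antisense to the thyroid hormone deiodinase gene DIO3, had 4.20 and 6.32, a log2 ratio of 2.13 that was 0.18 with dim signals raised to the median. DIO3 was not detected. The genes next to the cluster on the side of DLK1 were LINC00523 (log2 ratio -0.49) and BEGAIN (0.86).

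**Figure D3:**
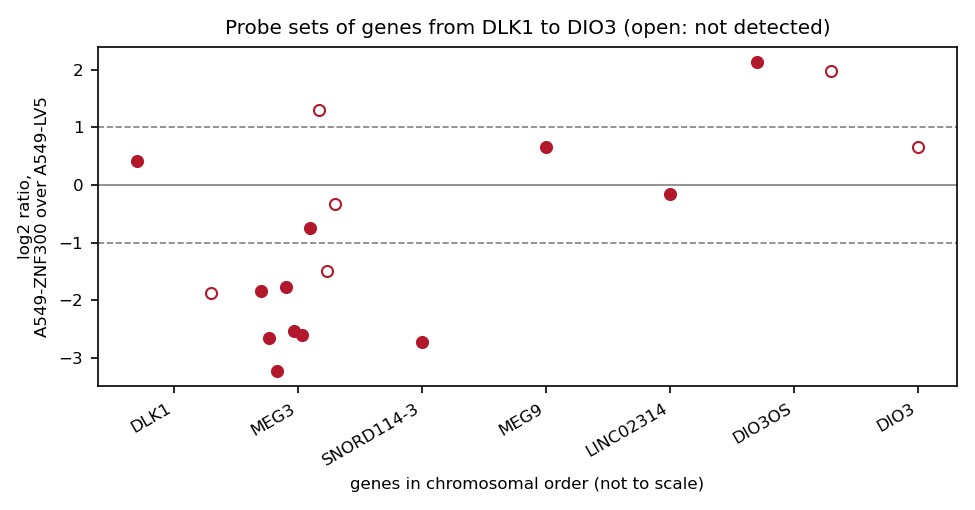
Log2 ratio (A549-ZNF300 over A549-LV5) of every probe set that names 1 gene, for genes from DLK1 to DIO3 in their order on chromosome 14, filled where detected and open where not. MEG3 and SNORD114-3 hold the detected points below -1, and the detected points of DLK1, MEG9 and LINC02314 lie between the dashed 2-fold lines. The detected point of DIO3OS lies above them.

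Farther out, the 20 detected genes nearest to the cluster, 10 on each side and also chosen after values had been seen, had a median log2 ratio of -0.38. Of these, 16 were lower and 4 higher, 1 of each at least 2-fold, and 1 had a lower ratio than MEG3, beside 53.4% of all detected genes lower. Around MALAT1 the 20 nearest detected genes had a median of 0.05, with 10 higher, 2 of these at least 2-fold, and 10 lower, 1 of these at least 2-fold. Around TUG1 it was 0.28, with 12 higher and 8 lower, 2 and 3 of them by that much. Around GAS5 it was -0.06, with 10 higher and 10 lower, 2 and 5 of them by that much. Differences of that size were seen in 29% of all detected genes, 13.6% upwards and 15.4% downwards.

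Some single neighbours of MALAT1, GAS5 and TUG1 differed more than these RNAs did, while for PVT1 no ratio was read. LTBP3, which binds latent TGF-β and is next to MALAT1 on chromosome 11, had 8.87 and 10.22, a log2 ratio of 1.35, and FRMD8 on the other side had one of 0.34. The other detected neighbours of MALAT1 were SLC25A45 (-0.05) and ZNRD2 (-0.15). ZBTB37, next to GAS5, had 9.02 and 7.62, a log2 ratio of -1.40, and CENPL, KLHL20 and RC3H1 had 0.66, -0.15 and 0.05. Next to TUG1, MORC2 had a log2 ratio of 0.37, OSBP2 0.40 and SMTN 0.35, while SELENOM, a selenoprotein gene, had 11.13 and 9.76, which is -1.37. MORC2-AS1 (2.18) and INPP5J (2.59) were below the median in A549-LV5 and had 1.16 and 0.10 against it, and MORC2-AS1 overlaps MORC2 on the other strand. Next to PVT1, the transcription factor gene MYC had 13.41 and 12.29, a log2 ratio of -1.12. POU5F1B, a near copy of POU5F1 with which it may share probes, had one of -1.20, and LINC00824 one of 0.47, or -0.09 with dim signals raised to the median.

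Other long noncoding RNAs differed in both directions, at 2-fold about as often as all detected genes. Of 65 listed, 52 had a probe set of their own, and besides the 3 of the named set 33 were detected. Of these 33, 14 were higher and 19 lower in A549-ZNF300, and 5 in either direction differed at least 2-fold. Their median log2 ratio was -0.12 beside -0.06 over all detected genes. MIR100HG, which hosts the microRNA miR-100, was bright in A549-LV5 (12.12 and 9.32, a log2 ratio of -2.80). Its other detected probe set gave 4.52, from 2.36 in A549-LV5, so the probe sets disagreed. WT1-AS (-2.48) and HOXB-AS1 (2.80) each lay below the median in 1 array and had -0.33 and 0.06 against it. With dim signals raised to the median, 4 of the 33 were at least 2-fold higher and 3 lower, beside 10.3% and 12.1% of all detected genes under the same rule (22.5% together).

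RNAs that host snoRNAs in their introns were mostly lower. Of 30 listed, 11 had a probe set of their own, and besides GAS5 8 were detected, of which 6 were lower, 2 of these at least 2-fold, and 2 higher, 1 of these at least 2-fold. Over all detected genes 53.4% were lower, 15.4% at least 2-fold, and 13.6% at least 2-fold higher. The median of the 8 log2 ratios was -0.49. EPB41L4A-AS1 had 12.91 and 11.54, a log2 ratio of -1.37, and its other detected probe set gave -0.56. SNHG32 had 13.46 and 12.10, a log2 ratio of -1.35, from 1 probe set. DANCR was the one at least 2-fold higher, with 9.75 and 11.12. ZFAS1 had 4 detected probe sets, all lower, with ratios from -0.40 to -0.22, close to the -0.32 of GAS5.

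Host RNAs such as GAS5 and ZFAS1 share with ribosomal protein mRNAs a pyrimidine tract at the start (5′ TOP), which ties them to the translation machinery, and their spliced forms are cleared by nonsense-mediated decay. Of 62 detected genes of ribosomal proteins and translation factors with such a tract, 56 were lower and 6 higher and 0 differed at least 2-fold. Of all detected genes, 53.4% were lower and 29% were at least 2-fold apart. The median of their log2 ratios was -0.13. Of the 62, 49 lay within 1 log2 unit of the highest signal of each array (15.53 and 15.52), where a difference in RNA may be compressed, and whether it was is not known. The largest distances from 0 were those of RPL36 (-0.98), EEF2, the elongation factor that moves the ribosome (-0.75), and RPLP2 (0.74). With the arrays centred on their medians the median of the list was -0.03. Such centring takes ratios just below 0 above it, so the count of 56 lower and the 53.4% depend on the scale. Genes of ribosomal proteins have many near copies in the genome, so their probe sets may share signal. Of 11 detected factors of nonsense-mediated decay, 7 were lower and 4 higher. Their median was -0.41. The exonuclease gene XRN1 was the only one at least 2-fold apart (-1.07), followed by SMG5 (-0.74) and EIF4A3 (0.62).

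Genes of the nuclear bodies that MALAT1 and NEAT1 belong to were spread around 0. Of 27 detected genes of paraspeckle proteins, the bodies built on NEAT1, 14 were higher and 13 lower, and 1 and 3 respectively passed 2-fold. Over all detected genes 13.6% and 15.4% did so (29% together). Their median was 0.09. AHDC1 (-1.58), FIGN (-1.54) and ZC3H6 (-1.43) had the largest distances from 0, and the core proteins SFPQ, NONO and PSPC1 had log2 ratios of 0.50, -0.06 and -0.42. Of 23 detected genes of nuclear speckles and SR splicing factors, 14 were higher and 9 lower. Their median was 0.24. The splicing kinase gene CLK1 (-1.25) was the only one at least 2-fold apart, before SRRM2 (-0.96) and SRSF4 (-0.80).

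Genes of the enzymes that cut the 3′ end of MALAT1 were mostly higher. RNase P makes the first cut and RNase Z, encoded by ELAC2, trims the small RNA that is released. Of 12 detected genes of both, 11 were higher, 6 of these at least 2-fold, and 1 was lower, beside 46.6% of all detected genes higher and 13.6% at least 2-fold higher. The median of their log2 ratios was 0.93. RPP25 had 7.34 and 9.67, a log2 ratio of 2.33. POP7 (1.41) and POP4 (1.33), also subunits of RNase P, followed, ELAC2 had 1.04, and RPP40 was the lower one (-0.49). MALAT1 itself was near 0, as given above, and whether its form without a poly(A) tail was read is not known. Of 19 detected genes of nuclear RNA decay, 11 were higher and 8 lower. Their median was 0.07, and the exosome subunit genes EXOSC2 (1.24), EXOSC3 (1.01) and EXOSC8 (0.88) had the largest distances from 0.

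Imprinted genes, to which MEG3 belongs, held log2 ratios far from 0, but most of the large positive ones were of genes dim in A549-LV5. Besides MEG3, 18 were detected, 9 higher, 4 of these at least 2-fold, and 9 lower, 8 of these at least 2-fold. Their median log2 ratio was -0.09. The shares of all detected genes beyond 2-fold were 13.6% on the higher side and 15.4% on the lower (29% together). MEST had 5.44 and 12.06, a log2 ratio of 6.62 that was 5.91 against the median of A549-LV5. DIRAS3 (5.72, or 1.56 against that median), a RAS-related growth suppressor, and PLAGL1 (4.90, or 3.03), a zinc finger transcription factor, were also dim in A549-LV5. Like MEST, they were detected through A549-ZNF300 alone, and the detection rule thus fixed the sign of these ratios. Among the 11 with signals at or above the median in both arrays, 6 were at least 2-fold lower and 1 higher, beside 11.6% and 9.31% of all detected genes with such signals (20.9% together). The lower ones included ZDBF2 (-2.64), NAP1L5 (-2.30) and CDKN1C, which encodes the cell cycle inhibitor p57 (-2.16), and these 3 were named after their values were seen. KCNQ1OT1, a noncoding RNA that silences CDKN1C on the paternal copy, had 6.73 and 4.97, a log2 ratio of -1.75, or -0.69 against the median of A549-ZNF300.

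**Figure D4:**
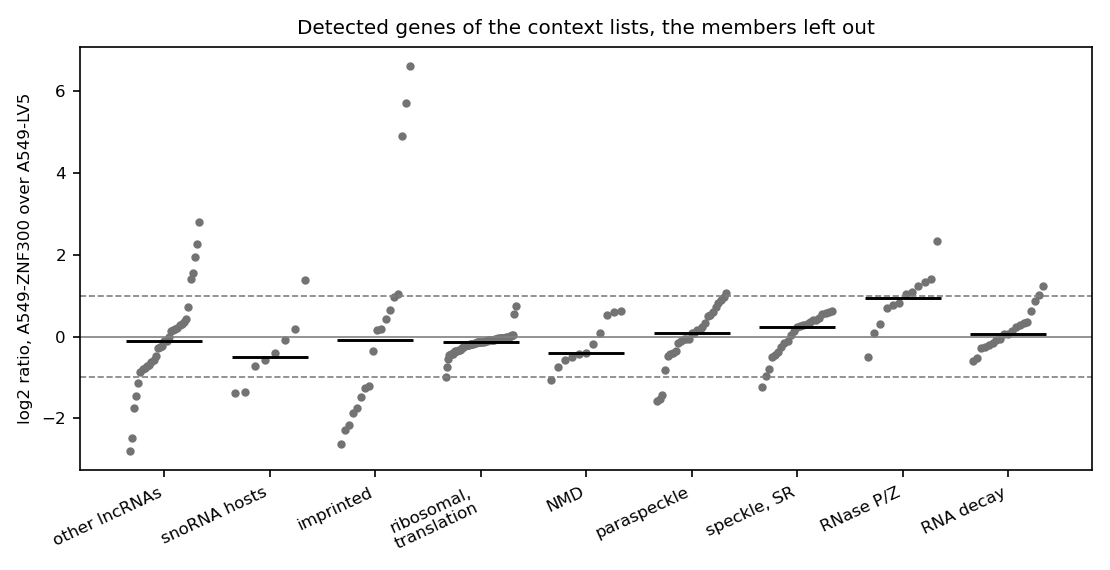
Log2 ratio (A549-ZNF300 over A549-LV5) of the detected genes of 9 lists, sorted within each list, with the list median as a line, dashed lines at 2-fold and the named long noncoding RNAs left out. Imprinted genes spread from -2.64 to 6.62, the genes of RNase P and RNase Z lie mostly above 0, and ribosomal protein genes lie close to 0.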

How the data were processed

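Total RNA of 1 A549-LV5 and 1 A549-ZNF300 culture was hybridised to 1 array each. The authors deposited a normalized log2 signal for each of 54675 probe sets. The submitters' processing notes list MAS5 and affy, with no version, and the study's methods give SCAN/UPC. Which of them made the signals is not given in the sources used here. A second table that the authors deposited has 8187 probe sets, with the same log2 signals (8187 equal within 1e-06), detection calls as other values per array, and fold changes of their own, which were not used.

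Of the probe sets, 41097 name 1 gene, 1801 several and 11777 none, by an array annotation with 0 symbols to update through RefSeq identifiers, and only the first were used. Detection, the choice of probe set and the counts at 2-fold are as given with the results. The members and lists were chosen with earlier results of these data known. Named genes were all members, the 3 detected genes of each list with the largest distance of the log2 ratio from 0, the detected ones of the 3 nearest measured genes on each side of a member, and the gene nearest in pattern, which is not given because it would set signals of different probe sets against each other. Other genes were named after their values were seen. The lists were other long noncoding RNAs, snoRNA hosts, ribosomal proteins and translation factors, nonsense-mediated decay, paraspeckles, nuclear speckles, RNase P and Z, nuclear RNA decay, imprinted genes, housekeeping genes (9 detected, 5 higher and 4 lower, median 0.02, with TBP at -1.16, YWHAZ at 0.47 and ACTB at 0.28) and cell type markers. Of the markers, 10 of 11 epithelial ones were higher, with CDH1 at 9.74, KRT19 at 8.79 (4.79 and 4.94 with the array median as floor) and ALDH1A1 at 5.22, and 4 of 9 fibroblast, 1 of 5 endothelial and 3 of 7 leukocyte ones were detected. Those of largest distance were LUM (6.56) and COL3A1 (3.84), both 0.15 with that floor, and COL1A1 (2.55), PECAM1 (0.27), and ITGAM (-1.48), CD14 (1.01) and CD3E (-0.51). Scripts used Python 3.11.15, pandas 2.3.3 and numpy 2.4.6 and were tested on simulated data. The number of arrays limits the precision, and no spread between replicates exists. Alternatives were other scalings, filters, choices of probe set, treatment of dim signals and fold thresholds.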

Additional observations from a re-analysis of the deposited data

Results flagged for a closer look

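Probe set 242246_x_at of MEG3 was left out of the counts because its signals were below the array median in both arrays. It was nonetheless called absent in A549-LV5 and present in A549-ZNF300, with log2 signals of 4.51 and 5.81, a log2 ratio of 1.30, against the direction of the 7 detected probe sets. A single array per condition leaves no outlier or group test to apply.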

How the results depend on the processing

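No paired analysis was possible because each condition has 1 array, and for the same reason no array could be left out. MEG3 was the 1 gene of the set at least 2-fold apart under all 11 alternatives run for that count. The count of probe sets, 6 with the settings used, ran over 8 alternatives from 5, where signals below the array median were raised to it, to 8 with no filter or at 1.5-fold. These counts mix directions and genes. With no filter, or a filter on detection calls, they took in MEG3 242246_x_at, which was higher (1.30), and at 1.5-fold MALAT1 227510_x_at (-0.73). The log2 ratio of MEG3, -1.83, was -2.53 as the median over its detected probe sets and -2.66 without probe sets ending in _x_at or _s_at, where another probe set stands for the gene, and from -1.83 to -1.73 under the other 7. It moved there by more than 0.35, the median SD between probe sets of a gene, which served as yardstick in place of an error. The ratio of MALAT1 ran from -0.11 to 0.07, with the sign turned in 3 of 9 alternatives, that of TUG1 from -0.06 to 0.12, with the sign turned in 2 of 9, and that of GAS5 from -0.32 to -0.21 under the 8 that kept its probe set.

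The median of no list changed sign in 81 list medians, and 3 moved by more than the yardstick, all of imprinted genes with MEG3 among them: from -0.34 to -1.49 without _x_at and _s_at probe sets, -1.24 with both arrays above the median and -0.78 with a filter at the 75th percentile. Counts at 2-fold changed by over 1.5 times as follows. With no filter, 4 snoRNA hosts against 2 and 10 long noncoding RNAs against 6 were lower, and over all genes 3358 were higher and 3862 lower against 1794 and 2038. With both arrays above the median those were 1042 and 1294, with 1 imprinted gene higher against 4. At the 75th percentile they were 1000 and 1073, with 2 long noncoding RNAs higher against 5, 3 lower against 6, and 1 paraspeckle gene lower against 3. Without _x_at and _s_at probe sets, 1 snoRNA host against 2, 4 translation genes against 0 and 0 speckle genes against 1 were lower, and 1 decay gene against 2, 2 imprinted genes against 4 and 1 nonsense-mediated decay gene against 0 were higher. With medians over probe sets, 1 snoRNA host, 2 translation genes and 0 nonsense-mediated decay genes against 1 were lower. Centring on array medians gave 0 lower nonsense-mediated decay genes, and either centring gave 2 higher paraspeckle genes against 1. The causes of these moves were not tested. Signals near background limit what the ratios of dim probe sets can show.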
